A study of Mus musculus with 4 samples.

Results

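The NF-kB family was read here through 10 genes: 5 that encode its DNA-binding subunits (Nfkb1, Nfkb2, Rel, Rela and Relb) and 5 that encode its inhibitors (Nfkbia, Nfkbib, Nfkbid, Nfkbie and Tnfaip3). They were chosen by name, with earlier results of these data known. Matching the RefSeq transcript accession of each array probe to a gene symbol gave 14 probes for these 10 of the 19896 genes named on the array. RNA came from CD4 T cells of lymph nodes of male mice aged 7 weeks, either wildtype or carrying a Med23 knockout, and MED23 belongs to Mediator, which bridges transcription factors and RNA polymerase II. Fresh cells of each genotype were analysed either without stimulation or 6 h after its start, the T cell receptor (TCR) being the receptor that the series design names, and each of the 4 groups had 1 single-colour Agilent array. The labels do not say how the knockout was made or in which cells, how CD4 T cells were purified, what stimulus was used, or how many mice gave the RNA of an array. With 1 array per group there is no replicate spread and no test, so a difference is called by size alone, at 2-fold or more (a log2 difference of at least 1 or at most -1).

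NF-kB factors are dimers of Rel-homology proteins. In resting cells they are held in the cytoplasm by the ankyrin repeats of the IkB inhibitors, or by those of the p105 and p100 precursors made from Nfkb1 and Nfkb2. TCR signals activate the IkB kinase (IKK), IkB proteins are then degraded, and dimers enter the nucleus, where several of the inhibitor genes are themselves targets and so close a negative feedback loop.

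Promoters are shown for Nfkb2 and Nfkbid, which were higher after stimulation in both genotypes, and for Tnfaip3 and Nfkbia, which differed most between the stimulated arrays, because each holds a match to the NF-kB consensus, the general 10-base kB site. The sequences are those of RefSeq, build GRCm38.p6, written in the direction of the gene, from 250 bases before to 50 after the annotated start. The Nfkb2 window is chr19:46304487-46304786 on the plus strand, the Nfkbid window chr7:30422156-30422455 on the plus strand, the Tnfaip3 window chr10:19015361-19015660 on the minus strand and the Nfkbia window chr12:55492598-55492897 on the minus strand. Capitals mark matches to the consensus on either strand.
Nfkb2: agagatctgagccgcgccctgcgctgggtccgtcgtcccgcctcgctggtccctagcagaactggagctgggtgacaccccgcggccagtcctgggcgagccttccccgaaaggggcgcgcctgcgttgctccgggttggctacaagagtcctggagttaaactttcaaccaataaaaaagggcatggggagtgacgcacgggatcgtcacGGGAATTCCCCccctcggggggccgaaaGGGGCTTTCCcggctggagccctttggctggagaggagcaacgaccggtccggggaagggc
Nfkbid: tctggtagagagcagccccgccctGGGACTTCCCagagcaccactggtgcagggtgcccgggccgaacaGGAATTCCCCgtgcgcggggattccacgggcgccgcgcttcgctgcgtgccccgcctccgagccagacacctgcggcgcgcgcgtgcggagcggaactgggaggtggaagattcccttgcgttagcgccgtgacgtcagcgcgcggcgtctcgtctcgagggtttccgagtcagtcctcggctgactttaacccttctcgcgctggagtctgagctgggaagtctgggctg
Tnfaip3: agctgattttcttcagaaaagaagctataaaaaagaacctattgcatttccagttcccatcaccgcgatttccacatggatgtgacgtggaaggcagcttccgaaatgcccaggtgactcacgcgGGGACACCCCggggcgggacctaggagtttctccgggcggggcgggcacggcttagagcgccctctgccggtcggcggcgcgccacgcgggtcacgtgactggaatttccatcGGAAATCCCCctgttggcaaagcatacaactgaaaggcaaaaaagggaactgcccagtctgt
Nfkbia: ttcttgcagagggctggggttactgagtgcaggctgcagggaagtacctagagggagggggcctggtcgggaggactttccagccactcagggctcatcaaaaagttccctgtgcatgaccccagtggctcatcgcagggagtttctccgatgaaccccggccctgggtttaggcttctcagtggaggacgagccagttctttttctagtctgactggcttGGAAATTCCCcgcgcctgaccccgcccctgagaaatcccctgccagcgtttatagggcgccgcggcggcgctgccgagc
The Nfkbia match, GGAAATTCCC, begins 29 bases upstream of the start, and the Tnfaip3 match nearest its start, GGAAATCCCC, begins 12 bases upstream. Nfkb2 has matches beginning 39, 38 and 11 bases upstream, of which the first pair overlap. The Nfkbid window belongs to the second of 3 annotated starts, and its matches GGGACTTCCC and GGAATTCCCC begin 226 and 181 bases upstream. The promoter table held 13 windows for 8 of the 10 genes, and 8 of these windows, from 6 genes, matched the consensus. The Rel window holds GGGAAATCCC, beginning 92 bases upstream, and the Nfkbie window holds GGGGGATTCC, beginning 106 bases upstream. The windows of Rela and Nfkbib hold no match, and neither do those of the other annotated starts of Nfkbid and Tnfaip3. Over all 32851 promoter windows of the table, 8.46% matched. A stricter motif that overlaps the consensus, GGGNNTTTCC on either strand, was found in 6 of the 13 windows, from Nfkb2, Nfkbia, Rel and Tnfaip3, and in 1.63% of all windows. Windows of neighbouring starts of a gene can overlap, and those of the other 2 Nfkb2 starts share the match GGGACTTTCC. A match describes letters and not binding.

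Levels are given as the log2 signal of a gene minus the 75th percentile of its array, with a floor at -5.01 below which values were set to the floor. A level depends on the probe as well as on the RNA, so levels are compared between arrays and not between genes. The stimulated wildtype array stood apart from the others: its raw 75th percentile was 680.8, 2.05 to 2.79 times that of the other arrays. It alone carried strong signals of other blood cells of the neutrophil, myeloid and red cell lists. All 16 listed neutrophil and myeloid markers were 2-fold higher in it than in the unstimulated wildtype array, and their summed scaled signal was 308.5 against 4.74 to 6.83 in the other arrays. That of 7 red cell markers on the array was 154.9 against 0.745 to 0.839. All 12 T cell markers, including Cd4 and Cd3e, lay above the floor in every array, with sums of 592.7 to 891.5. The part of the other cells in the values of the stimulated wildtype array was not tested, and in bulk RNA fewer cells of a type cannot be told apart from less RNA per cell. The single Med23 probe had levels of -1.59 and -0.75 in the unstimulated and stimulated wildtype arrays and of -1.66 and -2.29 in those labelled knockout. Med23 thus differed by -0.07 between the genotypes without stimulation, which does not show the loss that the label names, and by -1.54 with stimulation. Whether the probe lies inside the deleted part is not known. For these reasons the arrays are called labelled knockout. Between spots of a probe present 10 times, the SD of a log2 difference between 2 arrays was 0.11 to 0.13 at levels over 1 and 0.59 to 0.83 between the floor and -3, which covers noise within an array only.

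Stimulation was accompanied by higher levels of most of the family in both genotypes. Of the 9 genes measured in wildtype, 5 were 2-fold higher and 0 lower, where 27% of all 14619 measured genes were past the rule, 14.2% higher and 12.8% lower. In the arrays labelled knockout 6 of 10 were 2-fold higher and 0 lower, where 27.3% of 14229 genes were past it, 13.5% higher and 13.8% lower. The median difference of these genes was 1.16 in wildtype, where Rel was not measured. In labelled knockout it was 1.07 with Rel at its bound and 1.12 without it. Over all genes the medians were -0.02 and 0.05. Nfkb1, Nfkb2, Relb, Nfkbib and Nfkbid were past the rule in both genotypes, 5 of 9 genes measured in both, where 7.13% of 13618 genes were higher in both and 7.72% lower in both. In the labelled knockout pair, where each of the 5 was past the rule, neutrophil and myeloid markers summed to 6.83 before and 4.74 after stimulation. B cell markers summed to 17.1 before and 10.8 after, and dendritic cell markers to 5.77 and 4.43. Cd74 made up most of the B cell sums and Fscn1 most of the dendritic cell sums. The stroma sum was lower after stimulation too, while the red cell and natural killer sums were slightly higher. The part of these other cells in the differences of the 5 genes was not tested.

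**Figure D1:**
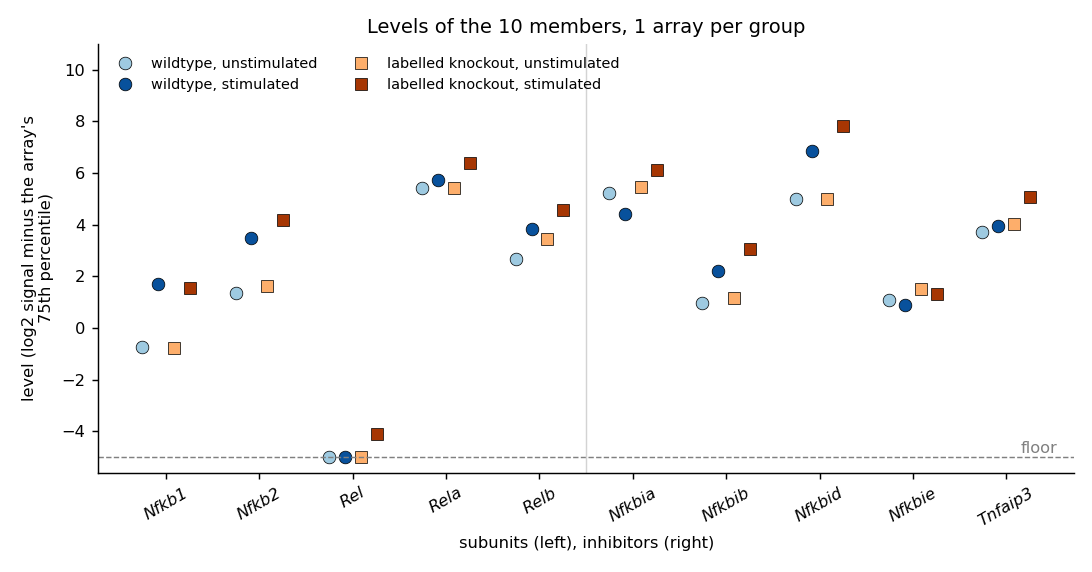
Level (log2 signal minus the 75th percentile of the array, y axis) of each gene (x axis, subunits left and inhibitors right) in the 4 arrays, 1 point per array, with no replicates. For 7 of the 9 genes above the floor the stimulated array labelled knockout was the highest, the exceptions being Nfkb1 and Nfkbie, and Rel lay at the floor (dashed line) in 3 arrays.

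Among the subunits, Nfkb1, which encodes p105 and the p50 processed from it, had levels of -0.73 and 1.69 in the unstimulated and stimulated wildtype arrays and of -0.77 and 1.55 in those labelled knockout. Both stimulated arrays were thus far above both unstimulated ones, by 5.34-fold in wildtype (log2 2.42) and 4.98-fold in labelled knockout (log2 2.32), and the genotypes lay within 0.14 of each other in either state. Its probes disagreed on the genotype, however. The brighter one had a stimulation difference of 2.26 in wildtype and 2.78 in labelled knockout, while the dimmer one had 2.58 and 1.85, so the close match of the averages is a mean of opposite offsets.

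Nfkb2, the p100 precursor of p52 in the noncanonical pathway, had levels of 1.37 and 3.49 in wildtype and of 1.62 and 4.17 in labelled knockout. It was 4.35-fold higher after stimulation in wildtype and 5.84-fold higher in labelled knockout, and the stimulated arrays differed by 0.67. Relb, the usual partner of p52, had levels of 2.68 and 3.83 in wildtype and of 3.45 and 4.57 in labelled knockout. Its stimulation differences were nearly the same, 1.16 and 1.12, and both of its probes showed this, at 1.27 and 1.04 in wildtype and 1.25 and 0.99 in labelled knockout. Relb was therefore just past the rule, and it fell short of it with scaling to the median in wildtype (0.91) and in the authors' normalized values in labelled knockout (0.84).

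Rela, which encodes p65, the transactivating partner of p50, had levels of 5.43 and 5.74 in wildtype and of 5.42 and 6.38 in labelled knockout. The unstimulated arrays differed by -0.0018. The stimulation difference was 0.31 in wildtype and 0.96 in labelled knockout, neither past the rule. With scaling to the T cell markers both were past it (1.3 and 1.45). Those 12 markers themselves had median stimulation differences of -0.41 in wildtype and -0.56 in labelled knockout. Scaling to them moved the median of all genes to 0.82 and 0.45. Rel, which encodes c-Rel, a subunit prominent in lymphocytes, was read by a single dim probe. Its raw signals were 2.71 and 6.27 in wildtype and 3.36 and 14.0 in labelled knockout, where the floor stood at 8.35, 21.1, 10.3 and 7.57 in the same order. Only the stimulated array labelled knockout was above the floor, at a level of -4.12, which gives a stimulation difference of at least 0.89 there. In wildtype both arrays were at the floor, so Rel counts as not measured. No statement about c-Rel mRNA in these cells can rest on this probe.

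Among the inhibitors, Nfkbid, which encodes the nuclear IkBNS, had levels of 5.01 and 6.84 in wildtype and of 5.0 and 7.81 in labelled knockout. It was 3.57-fold higher after stimulation in wildtype (log2 1.83) and 6.99-fold higher in labelled knockout (log2 2.81), the largest stimulation difference among the 10 genes in labelled knockout. Nfkbib, which encodes IkB beta, had levels of 0.98 and 2.19 in wildtype and of 1.16 and 3.06 in labelled knockout. Its differences were 1.21 and 1.90. All 3 of its probes were higher after stimulation, by 0.95 to 1.40 in wildtype and by 1.14 to 2.46 in labelled knockout, and scaling to the median left the wildtype value short of the rule at 0.965.

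Nfkbie, which encodes IkB epsilon, had levels of 1.10 and 0.89 in wildtype and of 1.5 and 1.32 in labelled knockout. Neither stimulation difference, -0.20 and -0.18, came near the rule, and both were above 0 when arrays were scaled to the T cell markers, at 0.78 and 0.32. Tnfaip3 encodes A20, an ubiquitin-editing enzyme that restrains signalling to IKK. Its levels were 3.73 and 3.95 in wildtype and 4.03 and 5.05 in labelled knockout, so 3 arrays lay close together and the stimulated array labelled knockout stood above them. The difference in wildtype was 0.22, and it was -0.03 with scaling to the median and 1.21 with scaling to the T cell markers. It was 1.02 in labelled knockout, at the edge of the rule, and 0.73 in the authors' normalized values.

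Nfkbia encodes IkB alpha, the inhibitor with the fastest feedback, and was the 1 gene of the 9 whose stimulation differences had opposite signs. Its levels were 5.23 and 4.42 in wildtype and 5.46 and 6.11 in labelled knockout, so the stimulated wildtype array was the lowest and the stimulated array labelled knockout the highest. The differences were -0.81 and 0.65, neither past the rule. The sign in wildtype depends on the scaling: the raw signals were 10073 and 14551 in wildtype and 14666 and 16845 in labelled knockout, so the unscaled value was higher after stimulation by 0.53 in wildtype and by 0.20 in labelled knockout. Scaled to the T cell markers the values were 0.18 and 1.14. Scaling by 1 factor per array shifts all differences of a pair of arrays alike and leaves their order unchanged, and in that order Nfkbia had the lowest stimulation difference of the 9 in wildtype, and the second lowest, above Nfkbie, in labelled knockout.

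**Figure D2:**
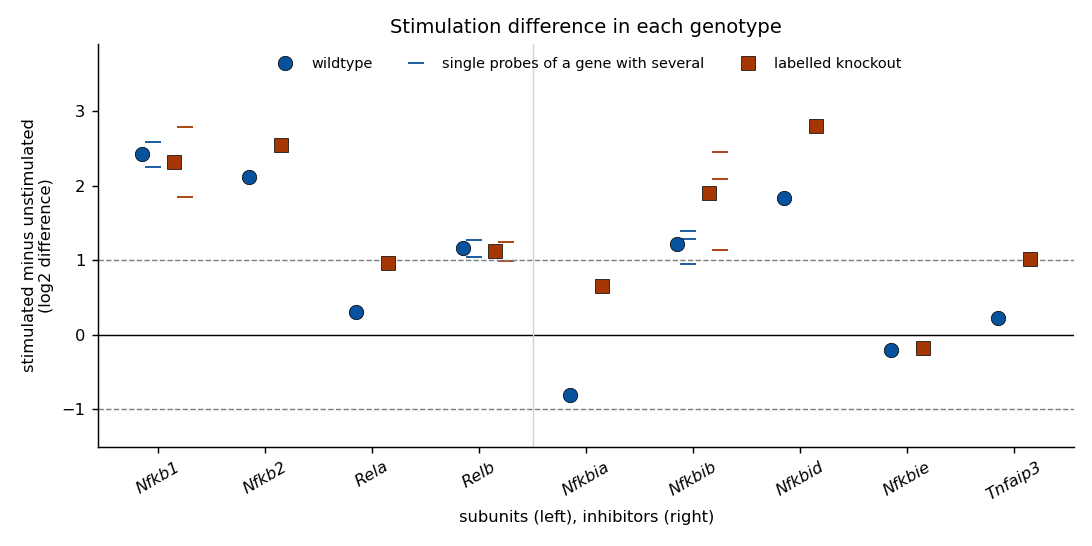
Stimulated minus unstimulated log2 difference (y axis) for the 9 genes above the floor (x axis), in wildtype (circles) and labelled knockout (squares), with short lines for single probes of genes that have several and dashed lines at 2-fold. Nfkb1, Nfkb2, Relb, Nfkbib and Nfkbid lie above the upper line in both genotypes, and Nfkbia lies at -0.81 and 0.65.

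The comparison of genotypes without stimulation asks whether resting cells differ, and used neither stimulated array. None of the 9 measured genes was 2-fold different (0 higher and 0 lower), where 4.73% of all 14008 genes were past the rule, 3.31% higher and 1.42% lower in labelled knockout. The values ran from -0.04 for Nfkb1 to 0.77 for Relb, with a median of 0.24 against -0.02 over all genes. Relb was 1.71-fold higher in the array labelled knockout, by 0.72 and 0.82 in its probes. The B cell markers summed to 7.34 in the unstimulated wildtype array and to 17.1 in the unstimulated array labelled knockout, with 3 of 8 markers 2-fold higher, and dendritic cell markers summed to 2.52 and 5.77. Pax5 and Ms4a1 were at the floor in the first of these arrays, and Xcr1, Ccl22 and Clec9a in both. Cd74, with levels of 2.66 and 3.94, made up most of the B cell sums, and Fscn1, with 0.83 and 2.23, most of the dendritic cell sums. The differences of the other B cell markers ran from -0.12 for Cd79a to at least 1.74 for Ms4a1. Both cell types express Relb, and their part in its difference was not tested.

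With stimulation 2 of the 10 genes were 2-fold higher in labelled knockout than in wildtype and 0 lower, where 13.1% of all 14629 genes were past the rule, 4.98% higher and 8.13% lower. These were Nfkbia, 3.23-fold higher (log2 1.69), and Tnfaip3, 2.15-fold higher (log2 1.10), both inhibitors. Nfkbid (0.96) and Nfkbib (0.87) lay just under the rule, followed by Relb (0.73), Nfkb2 (0.67), Rela (0.65) and Nfkbie (0.42). Nfkb1 was the exception at -0.14, though it was above 0 by its brighter probe (0.45) and with scaling to the median (0.07). Without scaling between arrays Nfkbia was at 0.21 and the other 8 genes above the floor were below 0, Nfkbid at -0.52 and Tnfaip3 at -0.38. The median was 0.80 with Rel at its bound and 0.73 without it, against 0.09 over all genes. Tnfaip3 was no longer past the rule in the authors' normalized values (0.86) or with scaling to the T cell markers (0.675), and Nfkbia was past it in both (1.55 and 1.265). These values all use the stimulated wildtype array, in which neutrophil and red cell RNA was abundant.

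The stimulation difference in labelled knockout minus that in wildtype addresses the Med23-dependent response that the series title names. Nfkbia was past the rule, with a difference of differences of 1.46, and 0 genes were past it on the negative side, where 17.7% of all 15230 genes were past it, 7.07% higher and 10.6% lower. Without scaling its sign turned (-0.33), as did those of the 6 other genes that were above both 0 and the floor. Nfkbid (0.97), Tnfaip3 (0.80), Nfkbib (0.68), Rela (0.65) and Nfkb2 (0.43) were also above 0, while Nfkbie (0.03), Relb (-0.04) and Nfkb1 (-0.10) were near it. With scaling to the T cell markers Nfkb2 (-0.07) and Nfkbie (-0.47) were below 0, and with scaling to the median Nfkb1 (0.19) and Relb (0.25) were above it. The inhibitors had a median of 0.80 and the subunits a median of 0.43 with Rel at its bound and 0.19 without it, against 0.09 over all genes. The subunit medians take Nfkb1 as the mean of its probes, which lay at -0.73 and 0.53. Nfkbia was at 1.29 in the authors' normalized values and at 0.96 with scaling to the T cell markers, the latter short of the rule. Nfkbid and Tnfaip3 were past the rule with scaling to the median alone (1.26 and 1.09), among the settings that scale the arrays.

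**Figure D3:**
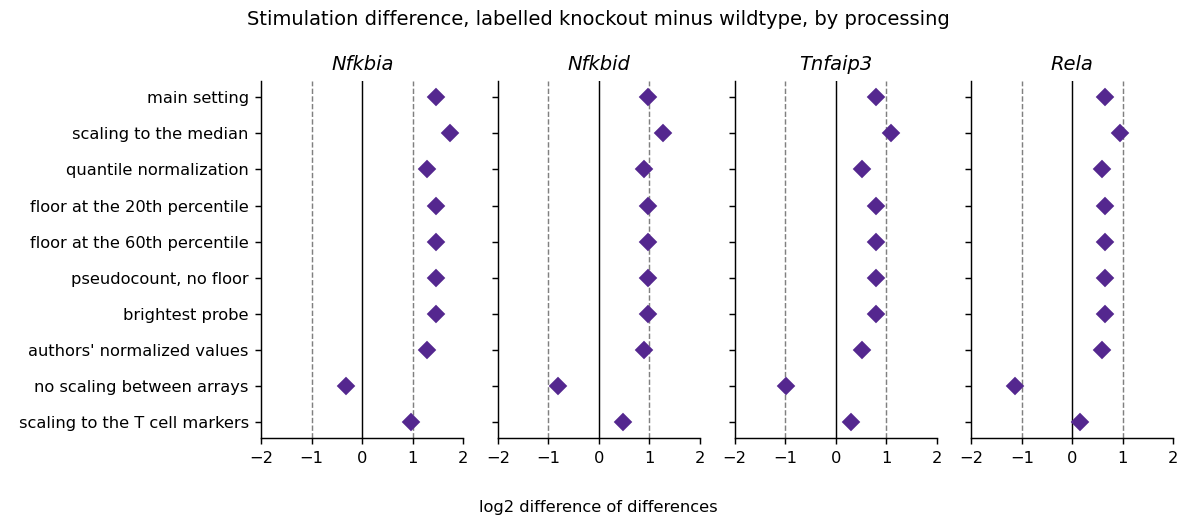
Difference of stimulation differences (labelled knockout minus wildtype, log2, x axis) of Nfkbia, Nfkbid, Tnfaip3 and Rela under each way of processing (y axis), with dashed lines at 2-fold. Values were above 0 under every setting that scales the arrays and below 0 without scaling between arrays, as the unscaled Nfkbia value of -0.33 shows.

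The genes with the profile most like Nfkb1 over the 4 arrays, by the root mean square difference of centred levels among 12217 genes above the floor in all arrays, were Ftsj3 (0.031), Sqle (0.054), Etf1 (0.058), Mrto4 (0.0625) and Cdv3 (0.067). All 5 were higher after stimulation by 2.26 to 2.60 in both genotypes, which follows from their choice by profile. That profile is the mean of the 2 Nfkb1 probes, which disagreed on the genotype. Within the family the nearest to Nfkb1 was Nfkb2 (0.30), which ranked only 135 among all genes compared. The genes most like Nfkbia were Ccrl2 (0.057), Olfr1131 (0.10), Gstt3 (0.12), Il2rb (0.146) and Tmtc4 (0.146). Il2rb, the beta chain of the interleukin-2 receptor, had levels of 3.64 and 2.88 in wildtype and of 3.79 and 4.2 in labelled knockout. Olfr1131 and Gstt3 were dim, with levels between -3.53 and -1.07. Nearest to Nfkbia within the family was Tnfaip3 (0.41), which ranked only 872 among all genes compared.

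Other genes of the pathway were followed from lists drawn up by role, with earlier results of these data known. Of 24 genes that carry the signal from receptor to IKK, 2 were 2-fold higher and 2 lower after stimulation in wildtype, and 6 higher and 2 lower in labelled knockout, with medians of -0.02 and 0.22. Of all genes 14.2% were higher and 12.8% lower in wildtype and 13.5% and 13.8% in labelled knockout. The 4 calls of 24 in wildtype are a smaller share than the 27% of all genes. In labelled knockout the 6 higher of 24 are a larger share than the 13.5% of all genes. Birc3, a ubiquitin ligase that is also an NF-kB target, was higher in both (1.62 and 1.34), as was Ube2n, which makes lysine-63-type ubiquitin chains (1.05 and 1.08). The catalytic IKK subunits Chuk (-0.04 and 0.42) and Ikbkb (0.05 and -0.25) and the regulatory subunit Ikbkg (-0.29 and 0.33) were not past the rule. In the difference of differences Traf6 (1.47) and the paracaspase Malt1 (1.29) were past it on the positive side and Birc2 (-1.48) on the negative side.

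Of 18 other regulators, 5 were higher and 2 lower in wildtype and 2 higher and 2 lower in labelled knockout, with medians of -0.17 and 0.20, beside 27% and 27.3% of all genes past the rule in either direction. Ndfip1, an adaptor of ubiquitin ligases (2.42 and 1.92), and Tnip2, an A20-binding protein (1.56 and 1.66), were higher in both genotypes, and Pdlim2, a nuclear ubiquitin ligase for p65, was lower in both (-1.14 and -1.49). Peli1 (1.31), Commd1 (-1.40) and Zc3h12a (-1.36) were past the rule in the difference of differences. Zc3h12a encodes the RNase Regnase-1, and its levels of -4.69 and -3.42 in wildtype and of -4.82 and -4.91 in labelled knockout were all near the floor. The atypical IkB genes Bcl3 (-0.45 and 0.05) and Nfkbiz (-0.12 and 0.75) were not past it in either genotype, unlike Nfkbid.

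Known NF-kB target genes formed the group with the most calls. As this list too was chosen with earlier results known, its counts are a description only. In wildtype 19 of 31 measured genes were 2-fold higher and 0 lower, and in labelled knockout 23 of 32 were higher and 1 lower, with medians of 1.35 and 1.78, beside 14.2% higher and 12.8% lower of all genes in wildtype and 13.5% and 13.8% in labelled knockout. The rule names Ccl4 (6.32 and 8.45), Ccl3 (at least 4.44 and at least 6.00), Il2 (4.05 and 4.97), Irf4 (4.47 and 4.25), Cxcl10 (3.88 and 4.28) and Tnf (3.68 and 3.96). Many of these genes are driven by NFAT, AP-1 or interferon signals as well, and the list shares Birc3, Nfkbiz, Tnip1 and Zc3h12a with the lists above and Rel with the 10 genes. Between the stimulated arrays 8 of 32 targets were higher in labelled knockout and 1 lower, with a median of 0.69, beside 4.98% and 8.13% of all genes. In the difference of differences 6 were past the rule on the positive side and 1 on the negative, beside 7.07% and 10.6% of all genes. The rule names Ccl4 (2.13), Ccl3 (1.56, with both unstimulated arrays at the floor), Cd40lg, the ligand by which helper T cells signal to B cells (1.47), the activation marker Cd83 (1.21) and Stat5a (1.14). It also names Zc3h12a (-1.36), the target on the negative side.

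**Figure D4:**
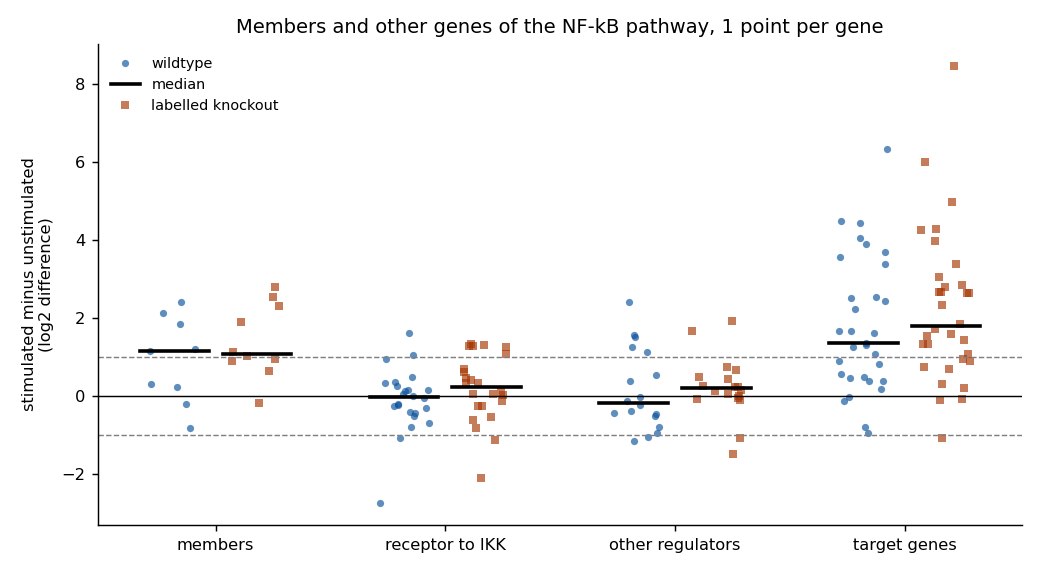
Stimulated minus unstimulated log2 difference (y axis) of the 10 genes and of the 3 other groups of NF-kB pathway genes (x axis) in wildtype (circles) and labelled knockout (squares), 1 point per measured gene, with bars at the medians and dashed lines at 2-fold. The signalling genes and other regulators centre between -0.17 and 0.22, and the targets at 1.35 and 1.78.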

How the data were processed

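The authors deposited the linear intensity of each spot as left by Agilent Feature Extraction 10.7.3.1 on 1-colour (Cy3) arrays, per the submitters' processing notes, with no normalization between arrays and no detection or saturation flags. The authors' log2 values for 17878 probes came out of GeneSpring GX 11.5.1, per the file headers, after normalization by a method not given in the sources used here. Against quantile-normalized log2 intensities they showed an SD of differences of 0.022 to 0.025.

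From the intensities, the log2 values of repeated spots were averaged per probe, the 75th percentile over the 39429 probes was subtracted per array, and values under the median of the arrays' 40th percentiles were set to that floor. Probes of a gene were averaged, with names from RefSeq tables of GRCm38.p6, which matched 26299 probes. Of the 10 genes, 7 have 1 probe and 3 have several. A gene counts as measured where any of the arrays compared exceeds the floor, and "at least" marks a bound from a floor value. With 1 array per group no test was made within a comparison, and a test of stimulation pooled over genotypes was not run. The members, lists and named-gene rules were chosen with earlier results of these data known. The rule names all 10 members, up to 6 genes per list past 2-fold in the same direction in both genotypes or in the difference of differences, and 5 genes with the closest profile. 1 gene that the rule names is not reported here. Planned comparisons of protein sequences were not run. The code was tested on simulated data. Python 3.11.15, numpy 2.4.6 and pandas 2.3.3 were used.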

Additional observations from a re-analysis of the deposited data

Results flagged for a closer look

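Nfkbia was singled out because its stimulation differences had opposite signs in the genotypes, -0.81 in wildtype and 0.65 in labelled knockout. The difference of differences was 1.46, and it was not tested, since each sign rests on 1 pair of arrays. Of 13618 genes measured in both pairs, 10.5% had opposite signs and lay at least 2-fold apart, and 4.44% did so in the direction of Nfkbia. The value in wildtype was 0.53 without scaling and 0.18 with scaling to the T cell markers. Neutrophil and myeloid markers summed to 308.5 in the stimulated wildtype array and to 4.74 in the stimulated array labelled knockout, and their part in this difference was not tested.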

How the results depend on the processing

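Limits are those of single arrays, of 7 genes read by 1 probe each, and of scaling, since the stimulated wildtype array was the brightest. Each group had 1 array, so there were no replicates to pair within a genotype. A fit of stimulation with genotype as a block, which leaves 1 residual degree of freedom, was not run. Of 522 values of single genes under 11 other settings and by single probe, 453 kept their side of the rule, 19 no longer passed it, 42 newly passed it and 8 reversed. Reversed means a change of sign with the value past the rule under either setting, and other changes of sign are among the 453. The 1.5-fold rule gave 16 of the 42 and the 3-fold rule 6 of the 19, by the change of threshold only. Of 110 counts, 21 moved by over 1.5 times. Scaling to the median gave 3 higher and 1 lower gene in wildtype, 4 higher between the stimulated arrays and 3 in the difference of differences. Quantile normalization and the authors' normalized values each gave 1 higher between the stimulated arrays. A floor at the 20th percentile and a pseudocount each gave 2 in the difference of differences, with Rel added at 2.28 and 1.81. A 1.5-fold rule gave 1 lower gene in wildtype, 1 higher between the unstimulated arrays, 8 between the stimulated arrays and 6 in the difference of differences, and a 3-fold rule gave 3 higher in wildtype, 1 between the stimulated arrays and 0 in the difference of differences. The settings that follow were added after seeing the data. Scaling to the T cell markers (median of all genes 0.82 in wildtype and 0.45 in labelled knockout) moved no count by over 1.5 times. The genes counted changed, however. Rel (1.16) passed the rule in place of Tnfaip3 between the stimulated arrays and in place of Nfkbia (0.96) in the difference of differences. Without scaling between arrays, 9 genes were higher after stimulation in wildtype, 1 was higher between the unstimulated arrays, 1 higher and 2 lower between the stimulated arrays, and 0 larger and 6 smaller in the difference of differences. This setting leaves the brightness of the arrays uncorrected (median of all genes 1.12 in wildtype and -1.49 in the difference of differences). Values that changed sign under it and were past the rule under either setting were Nfkbie after stimulation in wildtype (1.13), Tnfaip3 (-0.38) and Nfkbie (-1.06) between the stimulated arrays, and in the difference of differences Nfkbia (-0.33), Nfkbib (-1.11), Rela (-1.14), Nfkb2 (-1.36) and Nfkbie (-1.76), while Nfkbid (-0.82) and Tnfaip3 (-0.99) changed sign there without passing it. Scaling to the median moved the median of all genes to -0.23 in wildtype and 0.34 in the difference of differences.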
